A study of Homo sapiens with 2 samples.

Results

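The 9 genes described here act in nonsense-mediated mRNA decay or in the exon junction complex that feeds it. They are UPF1, UPF2, UPF3A, UPF3B, SMG1, SMG5, SMG6, RBM8A and MAGOH, and were listed by name, not by their measured values. All 9 were found among the 62700 genes of the gene table. RNA came from TCam-2, a human seminoma (testicular cancer) line in long use. The cells had been transduced with FLAG-tagged DDX53, a DEAD-box RNA helicase, and polyadenylated RNA of 2 replicates was sequenced. Both replicates belong to 1 group and share the genotype, given in the labels as DDX53 overexpression. The controls named in the design, GFP-FLAG cells and untransduced cells, were not analysed here, so no effect of DDX53 on these genes was measured. The promoter of the construct and whether the cells are a clone or a pool are not given in the sources used here. Nothing states that the replicates are separate cultures. The p-values set the difference between these 2 libraries against counting noise and estimate no spread between cultures.

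Nonsense-mediated decay removes mRNAs on which translation stops too early. During splicing the exon junction complex is left on the mRNA upstream of each junction, and a complex still present downstream of a terminating ribosome marks that stop as premature. The helicase UPF1 is then joined by UPF2 and a UPF3 protein, is phosphorylated by the kinase SMG1, and recruits SMG5, SMG6 and other factors, which bring about destruction of the mRNA. Several mRNAs of these factors are themselves known to be targets of the pathway.

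Replicate 1 held 24137664 reads in genes and replicate 2 held 22198929, and a gene's CPM is its reads scaled to the same library total. DDX53 itself had 146 reads in replicate 1, or 6.05 CPM, and 147 reads in replicate 2, or 6.62 CPM, a low level that exceeded 23.8% of the detected genes. Without controls, the labelled overexpression could not be checked here. All 8 preset markers of seminoma and primordial germ cells reached 1 CPM in both libraries, with a summed level of 5110 CPM in replicate 1 and 5078 CPM in replicate 2. Of 3 markers of embryonal carcinoma, a related germ cell tumour, 2 reached it, at a summed 252 CPM in replicate 1 and 219 CPM in replicate 2. Of 6 markers of Sertoli and other somatic cells, 4 reached it, at a summed 64.3 CPM in replicate 1 and 61.1 CPM in replicate 2, and PTPRC had no read. Of 3 markers of later germ cells none reached it, and DAZL and SYCP1 had no read. In such bulk samples fewer expressing cells and less RNA per cell cannot be told apart.

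All 9 members were well above the detection level of 1 CPM in both libraries. Their mean levels ranged from 22.5 CPM for UPF3B to 302 CPM for UPF1. Among the 13604 genes detected in both libraries, 48.2% were lower than UPF3B and 95.9% were lower than UPF1. CPM grows with transcript length, so levels of different genes were compared on 2 scales per length. The first was TPM, the authors' length-scaled transcript abundance, summed over the transcripts of the gene in the annotation. The second was CPM per kilobase of the transcript with the highest TPM.

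**Figure D1:**
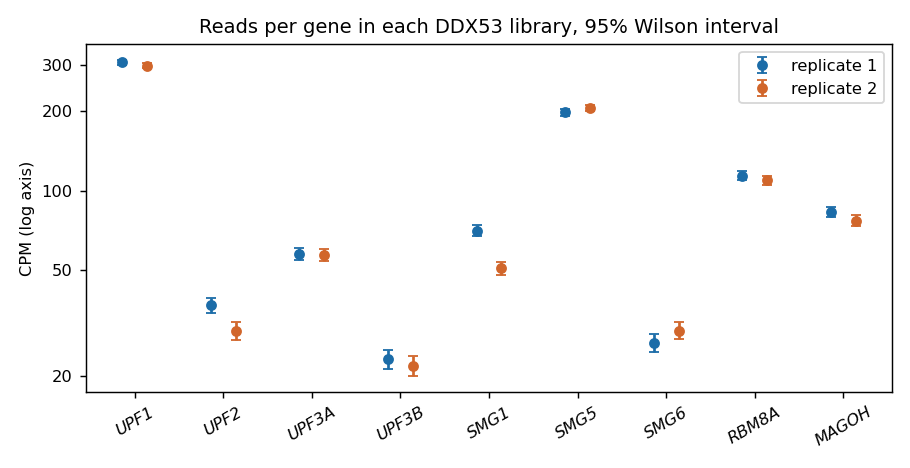
Level of each member in CPM (vertical log axis) in the 2 DDX53 libraries; points are single libraries and bars are 95% Wilson intervals of the reads. The libraries lie close together for UPF1, UPF3A, UPF3B and RBM8A, while SMG1 (70.7 and 50.9 CPM) and UPF2 (36.9 and 29.6 CPM) are lower in replicate 2.

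The junction complex genes were the most abundant members per length. RBM8A (ENSG00000265241.8) encodes Y14, which pairs with MAGOH in the core of the complex. It lies on the minus strand of chromosome 1, from 145917714 to 145927678 (GRCh38). Replicate 1 gave it 2755 reads and a level of 114 CPM (95% Wilson interval, 110.0 to 118). Replicate 2 gave it 2432 reads and 109.6 CPM (105 to 114). The intervals overlapped. Its summed TPM was 538 in replicate 1 and 464 in replicate 2 (501 ± 51.8, SD, n = 2), and 97.8% of the genes ranked by TPM were lower.

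RBM8A was estimated to come mainly as 2 coding transcripts in near equal amounts. RBM8A-201 held 45.0% of its TPM in replicate 1 and 46.4% in replicate 2. RBM8A-206 held 46.0% and 43.3%, so the order of the pair differed between the libraries. Their coding frames, of 519 and 522 bases, differ in length by 3 bases. These lie in exon 3 of RBM8A-206 on the minus strand at chr1:145926884-145926886 and are shown because they set the 2 coding frames apart. The capitals mark the extra bases, with coding sequence on either side (GENCODE 29, GRCh38).
RBM8A-206: gctttggctccgAAGaggggtcccgag
RBM8A-204 also has a coding frame of 522 bases, with a long 3′ untranslated region of 4326 bases, against 240 bases in RBM8A-201. It held 8.07% in replicate 1 and 9.01% in replicate 2.

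MAGOH (ENSG00000162385.11), the partner of Y14, lies on the minus strand of chromosome 1, from 53226892 to 53238610. It had 83.5 CPM in replicate 1 (95% Wilson interval, 79.9 to 87.2) and 77.1 CPM in replicate 2 (73.5 to 80.8), from 2015 and 1711 reads. Its summed TPM was 239 and 222 (231 ± 12.5, SD, n = 2). RBM8A exceeded MAGOH 2.25-fold in replicate 1 and 2.09-fold in replicate 2 by TPM, but 1.30-fold and 1.35-fold by CPM per kilobase. The pair stood in the same order on both scales, with a smaller distance in the reads. The second scale rests on the 796 bases of RBM8A-201, although RBM8A-204, of 4961 bases, held 8.07% and 9.01% of RBM8A TPM. Averaged over the transcripts, the length would be greater for RBM8A and smaller for MAGOH, since MAGOH-201 has 500 bases. Both changes lower RBM8A relative to MAGOH, so their order by reads depends on the length chosen. No such average was computed.

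The full-length transcript MAGOH-202 held 87.0% of MAGOH TPM in replicate 1 and 86.4% in replicate 2. MAGOH-201 held 12.9% and 13.4%, and lacks exon 3 of 5. The skipped exon has 111 bases, or 37 codons, so the reading frame is kept. It lies on the minus strand at chr1:53233542-53233652 and is printed in capitals between its neighbours as the difference between the coding frames; the untranslated regions of these transcripts differ as well.
MAGOH-202: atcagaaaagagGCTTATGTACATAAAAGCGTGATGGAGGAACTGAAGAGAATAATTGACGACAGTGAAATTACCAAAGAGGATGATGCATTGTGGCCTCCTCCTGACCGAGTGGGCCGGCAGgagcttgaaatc
The shares of the 2 transcripts moved by 0.603 percentage points or less between the libraries.

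MAGOH has a paralog, MAGOHB, which encodes a nearly equivalent junction complex subunit. MAGOHB had 55.7 CPM in replicate 1 and 52.7 CPM in replicate 2. By TPM, MAGOH exceeded MAGOHB 2.11-fold in replicate 1 and 2.15-fold in replicate 2, and by CPM per kilobase 1.32-fold and 1.29-fold. The full coding frames (MAGOH-202 and MAGOHB-201) were identical at 380 of 438 aligned bases, or 86.8%. The first 90 aligned bases without a gap, from coding base 2 in MAGOH and coding base 8 in MAGOHB, are shown with the 15 differing bases in capitals, since these spaced differences are what lets reads be assigned to either gene.
MAGOH-202: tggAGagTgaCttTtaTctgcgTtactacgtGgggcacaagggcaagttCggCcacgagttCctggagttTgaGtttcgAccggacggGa
MAGOHB-201: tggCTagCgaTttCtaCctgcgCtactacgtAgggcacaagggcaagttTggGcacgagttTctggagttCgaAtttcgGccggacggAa
The longest identical run in the whole alignment was 38 bases. Of the stretches of 50 bases in MAGOH-202, 2.12% occurred in a transcript of another gene, in each case MAGOH2P and not MAGOHB.

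Among the UPF genes, UPF1 was the highest by CPM per kilobase and UPF3A by TPM. UPF1 (ENSG00000005007.14), the central helicase of the pathway, lies on the plus strand of chromosome 19, from 18831938 to 18868236. Its level was 306 CPM in replicate 1 (95% Wilson interval, 299 to 313, from 7380 reads) and 298 CPM in replicate 2 (291 to 305, from 6607 reads). These intervals overlapped around a mean of 302 ± 5.74 CPM (SD, n = 2). Its summed TPM was lower in replicate 1, at 32.9, than in replicate 2, at 39.9, the opposite order to CPM.

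UPF1 showed the largest isoform shift of the 9 members. UPF1-201 held 48.9% of UPF1 TPM in replicate 1 and 73.5% in replicate 2. UPF1-207 held 46.6% in replicate 1 and 24.7% in replicate 2. UPF1-207 is the longer coding form, known to encode a longer regulatory loop in the helicase domain. It carries 33 more coding bases, or 11 codons, within exon 7, on the plus strand at chr19:18853072-18853104. They are printed in capitals as the only difference between the 2 coding frames; the untranslated regions of the forms differ as well.
UPF1-207: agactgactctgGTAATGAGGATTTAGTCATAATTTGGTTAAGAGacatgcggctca
The leading transcript moved by 24.6 percentage points. Among 7037 genes that have more than 1 transcript and reached 10 TPM in each library, the median shift was 3.01 points and 98.4% shifted less than UPF1. With both libraries in 1 group, this is a spread between replicates, and the depth behind a transcript estimate is unknown. The shares also cover only transcripts matched to the annotation. UPF1 reads were 2.67 and 2.10 times the number that those transcripts predict, as described below, so the shares may miss part of its signal.

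UPF2 (ENSG00000151461.20) encodes the protein that bridges UPF1 and UPF3. It lies on the minus strand of chromosome 10, from 11920022 to 12043170. Its level was 36.9 CPM in replicate 1 (95% Wilson interval, 34.6 to 39.4, from 891 reads) and 29.6 CPM in replicate 2 (27.4 to 31.9, from 656 reads). The intervals did not overlap, and replicate 2 was the lower. All of its matched TPM, 8.76 in replicate 1 and 6.90 in replicate 2, was assigned to 1 of its 4 annotated transcripts, UPF2-202. UPF1 exceeded UPF2 3.76-fold in replicate 1 and 5.78-fold in replicate 2 by TPM, and 8.04-fold and 9.78-fold by CPM per kilobase.

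UPF3A and UPF3B encode paralogous proteins. UPF3B links the decay factors to the junction complex, and UPF3A can stand in for it to a degree. UPF3A (ENSG00000169062.15) lies on the plus strand of chromosome 13, from 114281584 to 114305817, and had 57.6 CPM in replicate 1 and 57.2 CPM in replicate 2 (57.4 ± 0.327, SD, n = 2). UPF3B (ENSG00000125351.14) lies on the minus strand of chromosome X, from 119805311 to 119852998, and had 23.1 and 21.8 CPM (22.5 ± 0.930, SD, n = 2). UPF3A was the higher of the pair in both libraries, 3.16-fold and 3.39-fold by TPM and 2.44-fold and 2.56-fold by CPM per kilobase. The coding frames of UPF3A-202 and UPF3B-201 were identical at 64.9% of 1318 aligned bases, with no identical run over 16 bases.

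UPF3A transcripts were more divided than those of UPF3B. UPF3A-202, with 10 exons, held 45.9% of UPF3A TPM in replicate 1 and 38.0% in replicate 2. UPF3A-201 lacks exon 4 and held 23.3% and 13.9%. Exon 4 has 99 bases, or 33 codons, at chr13:114286302-114286400 on the plus strand, so its skipping keeps the frame. It is printed in capitals as the segment that separates the coding forms, since its inclusion is known to vary and to alter the binding of UPF2.
UPF3A-202: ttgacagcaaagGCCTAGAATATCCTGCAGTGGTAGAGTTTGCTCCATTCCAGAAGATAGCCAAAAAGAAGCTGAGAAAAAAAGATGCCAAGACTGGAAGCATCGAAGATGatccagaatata
UPF3A-204, for which no coding frame is annotated, was listed at 0 in replicate 1 and held 21.5% in replicate 2. Coding transcripts together held 69.9% of UPF3A TPM in replicate 1 and 54.1% in replicate 2, while the summed TPM was 40.2 in both libraries.

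UPF3B was nearly a single transcript by estimate. UPF3B-202 held 92.1% in replicate 1 and 91.5% in replicate 2, and UPF3B-201 held 7.86% and 7.34%. UPF3B-201 includes an exon of 39 bases, or 13 codons, on the minus strand at chrX:119840646-119840684. It is shown in capitals because the rarer form is defined by it.
UPF3B-201: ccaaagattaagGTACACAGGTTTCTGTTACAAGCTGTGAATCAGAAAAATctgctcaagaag
None of the 5 coding segments printed above brings a stop codon into the frame of its transcript.

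The SMG genes held both an abundant adaptor and the scarcest member per length. SMG5 (ENSG00000198952.8), an adaptor that binds phosphorylated UPF1, lies on the minus strand of chromosome 1, from 156249224 to 156282825. It had 198 CPM in replicate 1 and 206 CPM in replicate 2 (202 ± 5.68, SD, n = 2). SMG5-201 held 98.4% of its TPM in replicate 1 and 94.4% in replicate 2. The rest was in transcripts annotated as retaining an intron, which held 1.60% and 5.56%.

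SMG6 (ENSG00000070366.14) encodes the endonuclease that cuts the target mRNA. It lies on the minus strand of chromosome 17, from 2059839 to 2303771, and had 26.7 CPM in replicate 1 and 29.6 CPM in replicate 2 (28.2 ± 2.09, SD, n = 2). SMG5 exceeded SMG6 5.75-fold in replicate 1 and 6.03-fold in replicate 2 by TPM, and 9.69-fold and 9.08-fold by CPM per kilobase. SMG6 TPM was spread over short and long transcripts. The full coding transcript SMG6-201, with 1419 codons, held 40.9% and 44.5%. SMG6-207, with 6 exons at the 3′ end of the gene and no annotated coding frame, held 36.3% and 32.9%. A partial model of 5 exons and 652 bases, whose coding frame has no annotated end, held 22.8% and 17.9%.

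SMG1 (ENSG00000157106.18) encodes the kinase that phosphorylates UPF1 and had the lowest level per length of the 9 members. It lies on the minus strand of chromosome 16, from 18804853 to 18926454. Its level was 70.7 CPM in replicate 1 (95% Wilson interval, 67.4 to 74.1, from 1706 reads) and 50.9 CPM in replicate 2 (48.1 to 54.0, from 1131 reads). The intervals lay well apart. Spread over a leading transcript of 16115 bases, this was 4.39 CPM per kilobase in replicate 1 and 3.16 in replicate 2, and the summed TPM was 5.85 and 5.15. SMG1-202, the full coding transcript, held 94.4% in replicate 1 and 75.9% in replicate 2. That shift was larger than in 96.4% of the genes compared, but those reached 10 TPM in each library and SMG1 did not. Its shares rest on lower estimates than theirs, so the rank does not show an unusual shift.

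**Figure D2:**
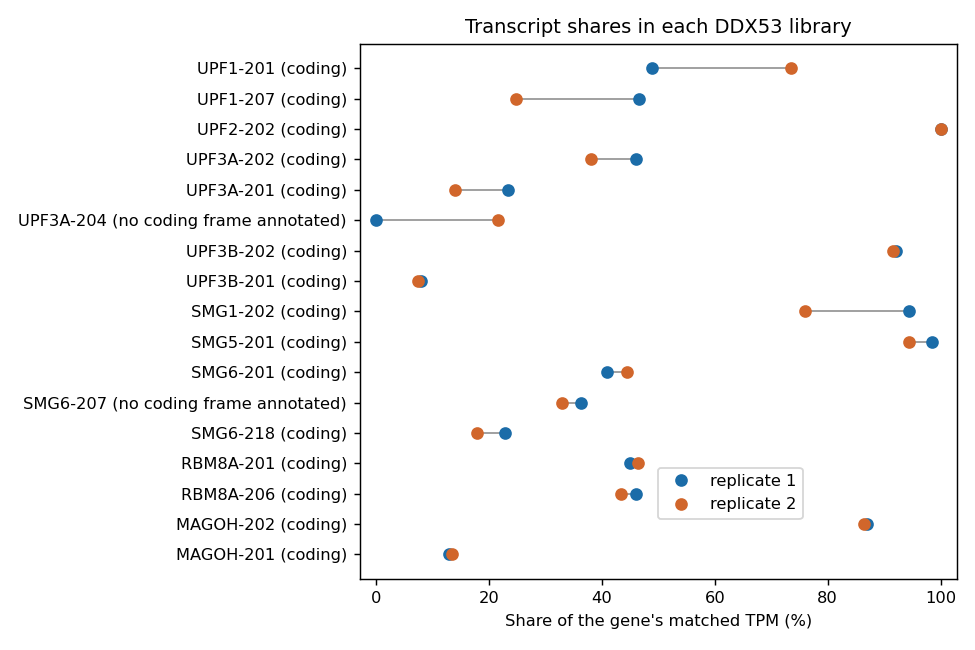
Share of each gene's matched TPM (horizontal axis, percent) for the members' main transcripts; each point is 1 DDX53 library and grey lines join the libraries. UPF1-201 and UPF1-207 (46.6% and 24.7%), UPF3A-204 (0 and 21.5%) and SMG1-202 (94.4% and 75.9%) move most, while the MAGOH, UPF3B and RBM8A transcripts stay within 3 points.

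Ordered by TPM, the members ran from RBM8A through MAGOH, SMG5, UPF3A, UPF1, UPF3B, SMG6 and UPF2 to SMG1. No pair of neighbours overlapped in its library values, although UPF3A (40.2 in both libraries) and UPF1 (39.9 in replicate 2) nearly met. With protein-coding transcripts alone 2 pairs changed places. The mean of UPF3A, 24.9 TPM, then lay below that of UPF1, 35.3 TPM, and the mean of SMG6, 6.21 TPM, below that of UPF2, 7.83 TPM. Ordered by CPM per kilobase, UPF1 (57.2 and 55.7) moved up, above SMG5 (43.4 and 45.1) and UPF3A (24.1 and 23.9). UPF2 (7.11 and 5.69) also passed SMG6 (4.48 and 4.97). RBM8A, MAGOH, UPF3B and SMG1 kept their places. RBM8A and MAGOH were thus the highest, and SMG1 was the lowest, on both scales.

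**Figure D3:**
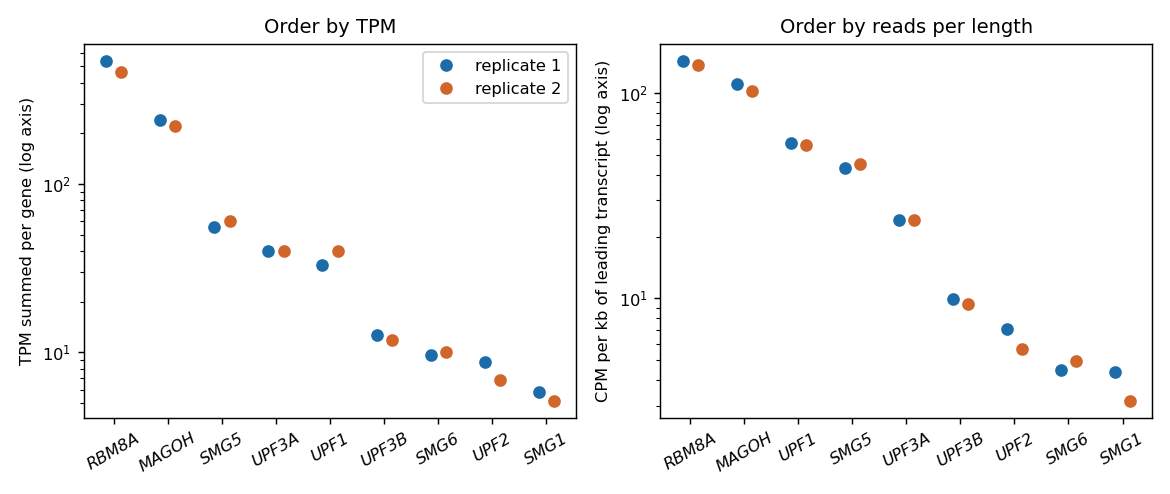
Members ordered by TPM summed per gene (left, log axis) and by CPM per kilobase of the leading transcript (right, log axis); each point is 1 DDX53 library. RBM8A and MAGOH lead on both scales and SMG1 is last, while UPF1 stands below SMG5 and UPF3A on the left and above both on the right.

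The scales can part where the reads of a gene differ from the number that its transcript estimates predict. They can also part where the leading transcript is longer than the others. CPM per kilobase divided all SMG6 reads by the 5960 bases of SMG6-201, although SMG6-207 (2426 bases) and the partial model (652 bases) held much of its TPM. UPF2 (1.21 and 1.23 times the prediction) and SMG6 (1.19 and 1.20 times) had alike ratios, and why they changed places was not tested. For 6 members (UPF2, UPF3A, UPF3B, SMG1, SMG5 and SMG6) the reads were 1.06 to 1.23 times the prediction in both libraries. UPF1 had 7380 reads against 2765 predicted in replicate 1 and 6607 against 3142 in replicate 2, an excess of 2.67-fold and 2.10-fold. RBM8A had 2755 reads against 9628 predicted and 2432 against 7951, or 0.286 and 0.306 of the prediction. MAGOH had 0.721 and 0.718 of the prediction. Over 3646 genes without exonic overlap with another gene, the central 90% of the log2 ratio ran from -0.61 to 0.66 in replicate 1 and from -0.64 to 0.66 in replicate 2. UPF1 (1.42 and 1.07) and RBM8A (-1.80 and -1.71) lay outside it, and their levels per length are uncertain to that extent.

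**Figure D4:**
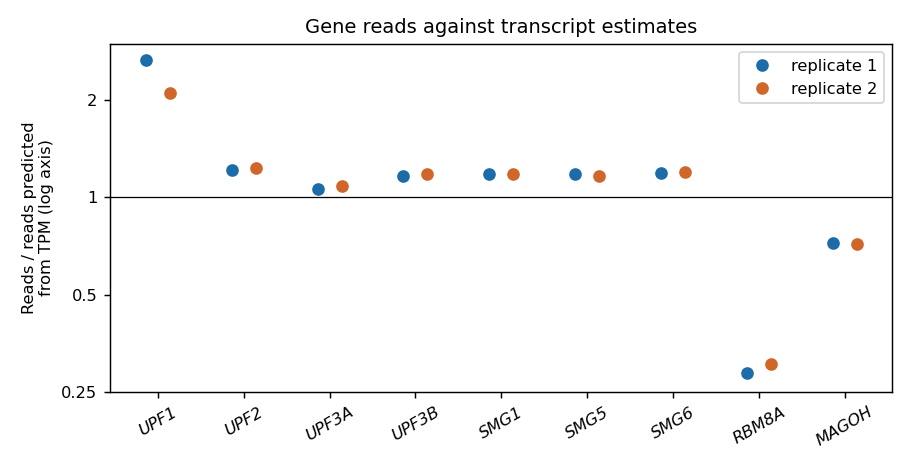
Reads of each member divided by the reads predicted from its TPM (vertical log axis, line at 1) in the 2 DDX53 libraries. UPF1 lies above 2 and RBM8A at about 0.3 in both libraries, and UPF2, UPF3A, UPF3B, SMG1, SMG5 and SMG6 lie between 1.06 and 1.23.

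Near-identical copies could share reads with RBM8A, UPF3A and SMG1, and less so with MAGOH, as given above. Of the stretches of 50 bases in RBM8A-201, 27.6% also occurred in RBM8B, a copy of RBM8A, which had 8 reads in replicate 1 and 12 in replicate 2. In UPF3A-202 the share was 42.1%, mostly with the pseudogene UPF3AP2, and 3 UPF3A pseudogenes together had 3 reads in replicate 1 and 4 in replicate 2. In SMG1-202 it was 18.02%, shared with transcripts of 249 other genes. The pseudogene SMG1P2 held the most, 11.3% of the stretches. The 9 entries for SMG1 pseudogenes together had 57 reads in replicate 1 and 75 in replicate 2, which is 3.34% and 6.63% of the reads of SMG1 itself. By TPM they summed to 19.1 in replicate 1 and 18.3 in replicate 2, above the 5.85 and 5.15 TPM of SMG1, so the tables differ on how abundant these copies are. Of these entries 4 had no read in either library. They include 1 of the 2 entries for SMG1P5, to whose transcripts 7.16 and 7.34 TPM were given, while the other entry had 3 reads in each library. UPF1, UPF2, UPF3B, SMG5 and SMG6 shared no such stretch with another gene. Genes on the opposite strand overlapped 25.05% of the exonic bases of RBM8A (among them GNRHR2) and 25.4% of those of SMG6 (among them SRR), and whether strand was used in counting is not given in the sources used here. The part of copies in the counts was not tested.

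Replicate 2 was set against replicate 1 gene by gene. SMG1 had 70.7 CPM in replicate 1 and 50.9 CPM in replicate 2, a log2 difference of -0.46 (edgeR, two-sided exact binomial test of the reads, Benjamini-Hochberg adjusted p = 4.0e-15 over 15299 genes). UPF2 had 36.9 and 29.6 CPM, a log2 difference of -0.31 (adjusted p = 0.00051 by that exact test in edgeR). Such a test sets these 2 libraries against counting noise and compares no conditions. Of the 9 members, SMG1 and UPF2 passed it and both were lower in replicate 2, whereas 13.1% of all genes tested passed in either direction, 6.35% as lower and 6.78% as higher. A count of 2 among 9 genes is too small to set against that share.

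The other members stayed within what counting allows after adjustment. Their log2 differences ran from -0.11 for MAGOH to 0.15 for SMG6, and their adjusted p-values (edgeR, exact binomial) from 0.13 for MAGOH to 1 for UPF3A. The median over the 9 members was -0.059, beside -0.0077 over all 13898 genes averaging 1 CPM or more. In all, 7 of 9 members were lower in replicate 2, of which only SMG1 and UPF2 passed the test. The share of all genes lower in replicate 2 was not counted, so no trend of the members is read from this number.

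Transcript length moved with this difference across all genes. Among 536 genes whose leading transcript exceeded 8 kilobases, the median log2 difference was -0.094 and 22.6% passed the test as lower in replicate 2. Among 3041 genes with a leading transcript of 1 to 2 kilobases, the median was 0.0041 and 5.03% passed as lower. The class of 4 to 6 kilobases, which holds UPF2, had a median of -0.014, with 7.98% lower and 6.80% higher. The leading transcript of SMG1 has 16115 bases and that of UPF2 has 5193. After the median of its length class was taken off, the difference was -0.37 for SMG1 and -0.30 for UPF2. Summed TPM gave SMG1 a smaller difference, -0.16, and UPF2 the same, -0.30. The SMG1 reads predicted from its transcript estimates fell as its reads did, from 1445 in replicate 1 to 956 in replicate 2. Its reads were 1.18 times the prediction in both libraries. SMG1-202 itself fell from 5.53 to 3.91 TPM, and the other SMG1 transcripts, all shorter, held more of its TPM in replicate 2. Reads and transcript estimates thus fell together for SMG1, while summed TPM fell less. The part of length in its difference was not tested further.

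**Figure D5:**
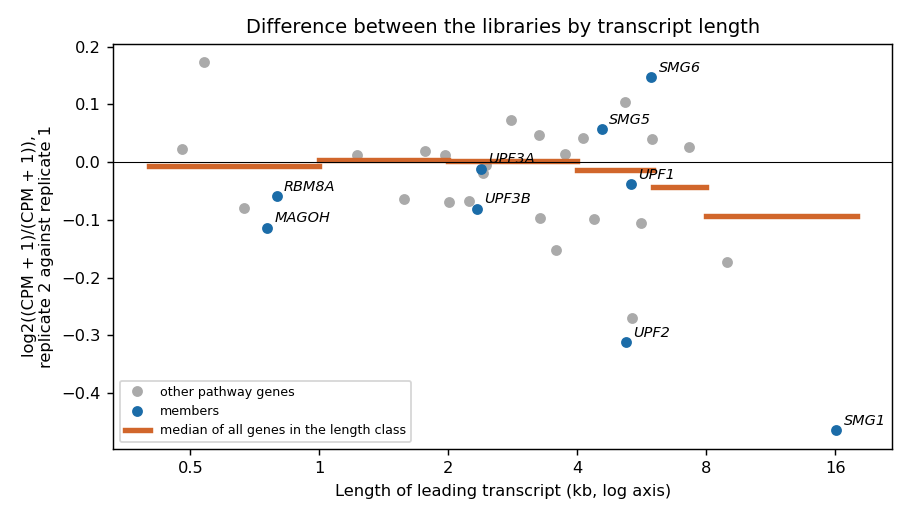
Log2 difference between the libraries, replicate 2 against replicate 1 (vertical axis), by length of the leading transcript (horizontal log axis); blue points are the members, grey points the other pathway genes, and orange bars the median of all genes in a length class. SMG1 (-0.46) and UPF2 (-0.31) lie lowest, and the class over 8 kilobases has a median of -0.094.

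The members' own transcripts were examined for the features by which the pathway recognises its targets. In GENCODE 29 only RBM8A and SMG1 have a transcript annotated as a decay target. In RBM8A these held 0.10% of TPM in each library, and in SMG1 they were listed at 0 in replicate 1 and held 1.21% in replicate 2. The other 7 members have no such transcript in this annotation. Of the 7432 genes that reached 10 TPM in each library, 45.7% have such a transcript, where it held a median of 1.80% in each library. Counting instead every transcript whose stop codon lies more than 50 bases before the last exon junction picked the same transcripts of the members. The shares were therefore the same, and this count is no separate check. Transcripts without an annotated coding frame have no stop codon to place, so neither count can include them. Coding transcripts held 69.9% of UPF3A TPM in replicate 1 and 54.1% in replicate 2, and 63.7% and 62.3% of SMG6 TPM. Whether the remaining transcripts are decay targets was not tested.

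The 3′ untranslated region, whose length can also expose an mRNA to UPF1, was long in most leading transcripts of the members. It measured 4716 bases in SMG1, 1719 in UPF1, 1649 in SMG6, 1363 in SMG5 and 1276 in UPF2. It measured 900 bases in UPF3A, 852 in UPF3B, 240 in RBM8A and 153 in MAGOH. The median of the members was 1276 bases, beside 681 bases over 6728 genes with a coding leading transcript, and 7 of 9 members were above the latter. The factors of decay thus lay above that median and the junction complex pair below it. In UPF1-201 the stop codon stands 3 bases before the last junction, within the distance that the 50-base rule tolerates, and the same holds for RBM8A-206, which led RBM8A in replicate 1. In RBM8A-201 and the leading transcripts of the other members it lies in the last exon.

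The rest of the pathway was described with a list of 25 genes, 14 of decay and termination and 11 of the junction complex and its partners. Of these, 24 reached 1 CPM in both libraries, the exception being RBM8B, and 24 could be tested. No gene passed as higher in replicate 2, and 4 passed as lower, among them DCP2, XRN1 and PNN. The median log2 difference over the 25 genes was 0.012. DCP2, the decapping enzyme, had 110.1 and 97.5 CPM, and XRN1, the exonuclease that degrades decapped RNA, had 29.3 and 24.1 CPM. PNN, a partner of the junction complex, had 268 and 241 CPM. EIF4A3, the helicase that clamps the junction complex onto RNA, had 251 and 240.4 CPM. By TPM, EIF4A3 (230.1 and 230.7) stood at the level of MAGOH (239 and 222), but by CPM per kilobase EIF4A3 (159 and 152) was above MAGOH (110.4 and 102) and RBM8A (143 and 138). CASC3, the remaining core subunit, was at 34.0 and 34.3 TPM, so EIF4A3 exceeded it 6.77-fold and 6.72-fold by TPM.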

How the data were processed

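Polyadenylated RNA of 2 TCam-2 libraries was analysed. Per the submitters' processing notes, Trim Galore 0.6.10, STAR 2.7.11a, Salmon 1.10.2 and DESeq2 were used with GRCh38; the annotation release is not given in the sources used here. The deposited transcript table holds the authors' TPM. The deposited gene table is named CPM, but each signal value of the authors is reads times 1 constant for that library (1.02 in replicate 1, 1.12 in replicate 2): 100% of values above 0 were whole multiples (tolerance 1e-06 reads), so reads were recovered. All per-sample columns were used.

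Transcripts were matched by identifier to GENCODE 29, which held 201667 of 251955 transcripts and 94.8% of TPM in each library; the rest are missing from summed TPM and shares. Predicted reads are TPM times transcript length, scaled to the reads of matched genes. Exonic overlap came from bedtools 2.31.1. Libraries were compared with edgeR 4.0.16 (binomTest, TMM, filterByExpr, Benjamini-Hochberg, threshold 0.05), tested on simulated data. Log2 differences are of CPM + 1, which understates low genes. Wilson intervals cover counting error only, since reads carry no molecular identifiers.

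Genes named are the members, a pathway list, their copies and 7 natural targets; transcripts named hold 10% of a member's TPM in either library (5% for annotated decay targets), and others were chosen after their values were seen. Length classes and CPM per kilobase were added after seeing the data. The members and lists were chosen with earlier results of these data known. Results that need items withheld for evaluation are not reported here.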

Additional observations from a re-analysis of the deposited data

How the results depend on the processing

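No paired analysis was possible because both libraries belong to a single group. Leaving out a replicate gives no value for the difference between libraries. The median level of the members, 60.8 CPM, ranged from 57.2 to 70.7 CPM with single libraries and was 36.4 on the scale of TPM summed per gene, which divides by length. The median summed TPM, 36.4, fell to 24.9 with protein-coding transcripts alone, where UPF3A lost its transcripts without a coding frame. The median log2 ratio of reads to prediction, 0.24, was 0.099 with lengths less 200 bases, which lowers short transcripts by construction. The difference between libraries for UPF1, -0.039, was reversed, at 0.27, when taken from summed TPM; the cause was not tested.

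SMG1 and UPF2 passed the test with library totals, DESeq2 size factors and all genes with a read, as they did with TMM. The number of genes that passed was 2008, and between 1716 and 1995 with these alternatives. Of the 25 pathway genes, 24 or 25 were detected under each threshold. Depth limits UPF3B most (484 reads in replicate 2, 95% Wilson interval 19.9 to 23.8 CPM). The depth behind isoform shares is unknown.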

Other observations

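Of 7 genes known as natural targets of decay, GADD45A, ATF4 and GAS5 have no transcript annotated as a decay target in GENCODE 29, and the shares below are those of the others and of MAGOHB. In TBL2 such transcripts held 69.8% of TPM in replicate 1 and 63.3% in replicate 2, while the coding transcript TBL2-201 held 15.0% and 12.1%. The gene had 31.3 and 32.0 CPM. In MAGOHB, the paralog of MAGOH, decay transcripts held 7.07% and 11.01%. In the splicing factor genes SRSF3 and HNRNPDL, both known to carry a regulated exon or intron that exposes them to decay, the shares were 3.88% and 2.97% in SRSF3 and 3.50% and 5.83% in HNRNPDL. GADD45B, a stress-induced target, had 3.32% and 2.35%. Pooled over all genes, transcripts annotated as decay targets took 2.45% of matched TPM in replicate 1 and 2.40% in replicate 2. Per gene, the mean share was 4.07% and 4.05% over the 7432 genes that reached 10 TPM in each library. The median was 1.80% in each library among those with such a transcript.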
